A study of Mus musculus with 25 samples.

Results

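The 8 genes described here are listed as seminal vesicle secretory genes outside the locus of Svs2 to Svs6, out of 24358 genes measured. They are the protease inhibitor genes Spink1 and Spinkl, the PATE family genes Pate4 and A630095E13Rik, the lysozyme family gene 9530003J23Rik, the cell adhesion family gene Ceacam10, the amine oxidase family gene Svs1 and the seminal vesicle autoantigen gene Sva. The list was drawn up with the counts of these conditions known. The members were therefore chosen in part by the measured values reported here, which are a description and carry no test. All 8 were found by symbol, and each had a usable estimate in all 5 conditions.

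RNA of mouse sperm was measured to ask how strain, prenatal exposure and generation act on it, the exposure being the phthalate plasticizer DEHP. C57 vehicle and FVB vehicle (labelled C57.CTL.F1 and FVB.CTL.F1) are first-generation C57BL/6J and FVB/N males whose mothers received corn oil by mouth on embryonic days 9 to 19. C57 DEHP and FVB DEHP (C57.D300.F1 and FVB.D300.F1) are first-generation males of the same strains whose mothers received DEHP at 300 mg/kg/day on those days. C57 DEHP F2 (C57.D300.F2) is the second C57BL/6J generation, from exposed first-generation males mated with newly obtained, unexposed females, and the authors state that their design has no vehicle condition in that generation. The labels give an age of 14 weeks. Each condition has 5 libraries of sperm that swam out of the incised cauda epididymis.

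The seminal vesicles are glands that supply much of the ejaculate's fluid and, in mice, the proteins of the copulatory plug. Their secretion holds Kazal-type inhibitors of serine proteases, small cysteine-rich proteins of the Ly-6 and PATE families, and proteins that bind to sperm and affect motility and capacitation. In normal transit, sperm of the cauda epididymis have not yet been mixed with this fluid.

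Each value is 1 estimated fragment count per gene and condition, which Cuffdiff derived from the 5 libraries together and scaled between libraries. With 1 value per condition, no spread between animals and no test can be given, and fewer cells of a type cannot be told apart from less RNA per cell. The counts summed to between 6921688 in C57 DEHP F2 and 8602900 in C57 vehicle. A log2 ratio is that of counts with 1 added, and a gene is past the limit when it differs by at least 2 log2 units and reaches 10 counts in 1 of the conditions compared. Counts of 3 or fewer are taken as the floor, which covers counting error only, and a fold against such a value is computed against 3 and is a lower bound. An earlier study supplied the 10 libraries of C57 vehicle and C57 DEHP, and the other 15 were new. A difference between C57 DEHP F2 or FVB/N and those conditions therefore cannot be told apart from a difference between both sets of libraries. Of the labelled cell type's genes, all 8 on a list of sperm and spermatid genes were above the floor in every condition.

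Because several members were high and low in the same conditions, the 250 bases before their start sites were compared. RefSeq's promoter table (GRCm38.p6) held entries for Svs1, Sva, Ceacam10, 9530003J23Rik and A630095E13Rik, which are 5 of the 8 members, and for all 6 genes of the Svs locus. The windows shown are chr6:48986611-48986860 (plus strand) for Svs1, chr6:42038144-42038393 (plus) for Sva, chr10:117238682-117238931 (minus) for 9530003J23Rik, chr9:36638603-36638852 (minus) for A630095E13Rik and, as an example of the Svs locus, chr2:164332515-164332764 (plus) for Svs5. Each is written 5′ to 3′ on the strand of its gene and ends next to RefSeq's start site. That site is the start of the longest coding transcript in GENCODE for Svs1, Sva and A630095E13Rik, the gene span of A630095E13Rik beginning 4774 bases further upstream with a transcript that is not coding. It lies 22 bases downstream of that start for 9530003J23Rik, 25 for Svs5, 125 for Svs2 and 152 for Svs4, and 39 bases upstream of it for Ceacam10. Capitals mark TATAAA and CCAAT, the core letters of promoter boxes named after them, on either strand.
Svs1: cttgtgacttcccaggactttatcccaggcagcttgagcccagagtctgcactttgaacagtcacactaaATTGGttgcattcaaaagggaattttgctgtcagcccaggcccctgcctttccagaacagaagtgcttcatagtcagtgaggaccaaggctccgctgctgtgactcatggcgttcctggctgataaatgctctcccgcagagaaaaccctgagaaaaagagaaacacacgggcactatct
Sva: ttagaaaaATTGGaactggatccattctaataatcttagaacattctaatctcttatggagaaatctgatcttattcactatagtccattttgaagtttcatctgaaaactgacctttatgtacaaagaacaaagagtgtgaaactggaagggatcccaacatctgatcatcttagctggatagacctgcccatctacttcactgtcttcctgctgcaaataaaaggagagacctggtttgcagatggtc
9530003J23Rik: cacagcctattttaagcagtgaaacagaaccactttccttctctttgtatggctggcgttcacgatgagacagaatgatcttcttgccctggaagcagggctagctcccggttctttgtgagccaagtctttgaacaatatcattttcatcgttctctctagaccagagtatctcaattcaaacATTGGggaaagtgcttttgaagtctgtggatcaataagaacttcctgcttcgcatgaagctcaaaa
A630095E13Rik: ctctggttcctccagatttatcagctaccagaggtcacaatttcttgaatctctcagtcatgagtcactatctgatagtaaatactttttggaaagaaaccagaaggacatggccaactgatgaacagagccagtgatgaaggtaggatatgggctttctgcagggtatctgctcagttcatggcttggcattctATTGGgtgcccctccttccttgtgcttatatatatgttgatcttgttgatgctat
Svs5: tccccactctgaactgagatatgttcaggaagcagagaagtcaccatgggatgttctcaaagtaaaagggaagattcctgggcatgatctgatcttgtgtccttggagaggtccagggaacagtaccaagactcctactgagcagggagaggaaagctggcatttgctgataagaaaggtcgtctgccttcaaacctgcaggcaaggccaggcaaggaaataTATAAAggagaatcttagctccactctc
CCAAT was found in 4 of the 5 member promoters, those of Svs1, Sva, 9530003J23Rik and A630095E13Rik, and in 33.8% of all 32851 promoter windows of this length in the table. In all 4 it was on the opposite strand, and it began 180 bases before the start of Svs1, 242 before that of Sva, 66 before that of 9530003J23Rik and 55 before that of A630095E13Rik. Ceacam10 held none, and 2 of the 6 promoters of the Svs locus, those of Svs2 and Svs4, held it too. None of the 5 member promoters held TATAAA, while all 6 of the locus did, and 12.4% of all windows. Only these exact letters were searched, so similar letters were not counted, such as tatatatat near the end of the A630095E13Rik window. The absence of TATAAA therefore does not show that a member lacks such a box. In Svs2 the matches began 236 and 205 bases before RefSeq's start. The window of Ceacam10 ends before the bases next to its GENCODE start, which were not searched. In Svs5, as in Svs3a, Svs3b and Svs4, a match began 28 bases before RefSeq's start. The forkhead core TGTTTAC was in none of the 5 member promoters and in 2 of the 6 of the locus, those of Svs3a and Svs3b (3.17% of all windows). The matches listed did not overlap each other, and a match describes letters and no binding.

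The members lie on 5 chromosomes of GRCm38 (GENCODE M21 positions), against 1 chromosome for the 6 genes of the Svs locus. Spink1 and Spinkl are both on chromosome 18 with 429 kb between them, Pate4 and A630095E13Rik are on chromosome 9 with 1024 kb between them, and Sva and Svs1 are on chromosome 6 with 6.94 Mb between them. Ceacam10 is on chromosome 7 and 9530003J23Rik on chromosome 10. Each has 3 to 5 exons in its longest coding transcript, whose length runs from 596 bases for Spinkl to 2775 for Svs1.

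Spink1 encodes a Kazal-type trypsin inhibitor that is also made in the pancreas. It lies on chromosome 18 from 43728082 to 43737557. Its count was 14805 in C57 vehicle, 0 in C57 DEHP, 4.49 in C57 DEHP F2, 0.936 in FVB vehicle and 0 in FVB DEHP. Spink1 was thus plentiful in C57 vehicle and at or near the floor in the other 4 conditions, and its fold between C57 vehicle and C57 DEHP was at least 4935. Spinkl, from 44166356 to 44175074 on the same chromosome, encodes a related protein that binds to sperm. Its counts were 7669.6 in C57 vehicle, 458 in C57 DEHP, 535 in C57 DEHP F2, 388 in FVB vehicle and 291 in FVB DEHP. Spinkl was also highest in C57 vehicle, but it kept 291 counts or more elsewhere, where Spink1 had almost none.

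Pate4, also known as Svs7, encodes a small cysteine-rich protein of the seminal fluid and lies on chromosome 9 from 35607093 to 35611941. It had 35622 counts in C57 vehicle, 25.2 in C57 DEHP, 57.1 in C57 DEHP F2, 42.0 in FVB vehicle and 30.4 in FVB DEHP. Pate4 was the member with the most counts in C57 vehicle and stayed above the floor in each of the other conditions. It overlaps Pate2 on the opposite strand, with 217 of its 1072 transcript bases in exons of Pate2. Pate2 itself had 313 counts in C57 vehicle and 176 in C57 DEHP, so the height of Pate4 was not shared by the overlapping gene. The authors mapped reads with a strand-specific option (second strand), and whether Cuffdiff was run with strand as well is not given in the sources used here. A630095E13Rik, named Pate14 in RefSeq and also known as Sslp1, encodes a secreted Ly-6 family protein, and lies on chromosome 9 from 36635754 to 36643376. It had 1387 counts in C57 vehicle, and 0, 2.00, 0 and 0.241 in C57 DEHP, C57 DEHP F2, FVB vehicle and FVB DEHP. It was at the floor in every condition but C57 vehicle.

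The gene 9530003J23Rik, with the RefSeq synonym Lyzf1, is a lysozyme family gene on chromosome 10 from 117232237 to 117238703, next to Lyz2. Its counts were 1825 in C57 vehicle, 6.22 in C57 DEHP, 15.4 in C57 DEHP F2, 8.31 in FVB vehicle and 9.86 in FVB DEHP. It was low in 4 conditions and yet above the floor in all of them. Sva encodes a seminal vesicle autoantigen that binds to sperm and holds back motility, and lies on chromosome 6 from 42038394 to 42042851. Sva had 9590.2 counts in C57 vehicle, 6.18 in C57 DEHP, 14.3 in C57 DEHP F2, 0.307 in FVB vehicle and 0.952 in FVB DEHP. Outside C57 vehicle, Sva was above the floor in C57BL/6J and under it in FVB/N.

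Svs1, a member of the copper amine oxidase family of proteins, lies on chromosome 6 from 48986861 to 48991722. It had 11543 counts in C57 vehicle, 619 in C57 DEHP, 744 in C57 DEHP F2, 1812 in FVB vehicle and 1819 in FVB DEHP. Svs1 was highest in C57 vehicle and, unlike Spinkl, next highest in FVB/N. Ceacam10 encodes a secreted protein of the carcinoembryonic antigen family, and lies on chromosome 7 from 24777206 to 24784657. It had 3514 counts in C57 vehicle, 1472 in C57 DEHP, 1819.7 in C57 DEHP F2, 3141 in FVB vehicle and 3564 in FVB DEHP. Ceacam10 was the 1 member whose highest count was outside C57 vehicle, in FVB DEHP. That margin was far smaller than the model's SD of 2347 counts in C57 vehicle and 1097 in FVB DEHP. The counts of Ceacam10 stayed within 2.42-fold of each other.

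**Figure D1:**
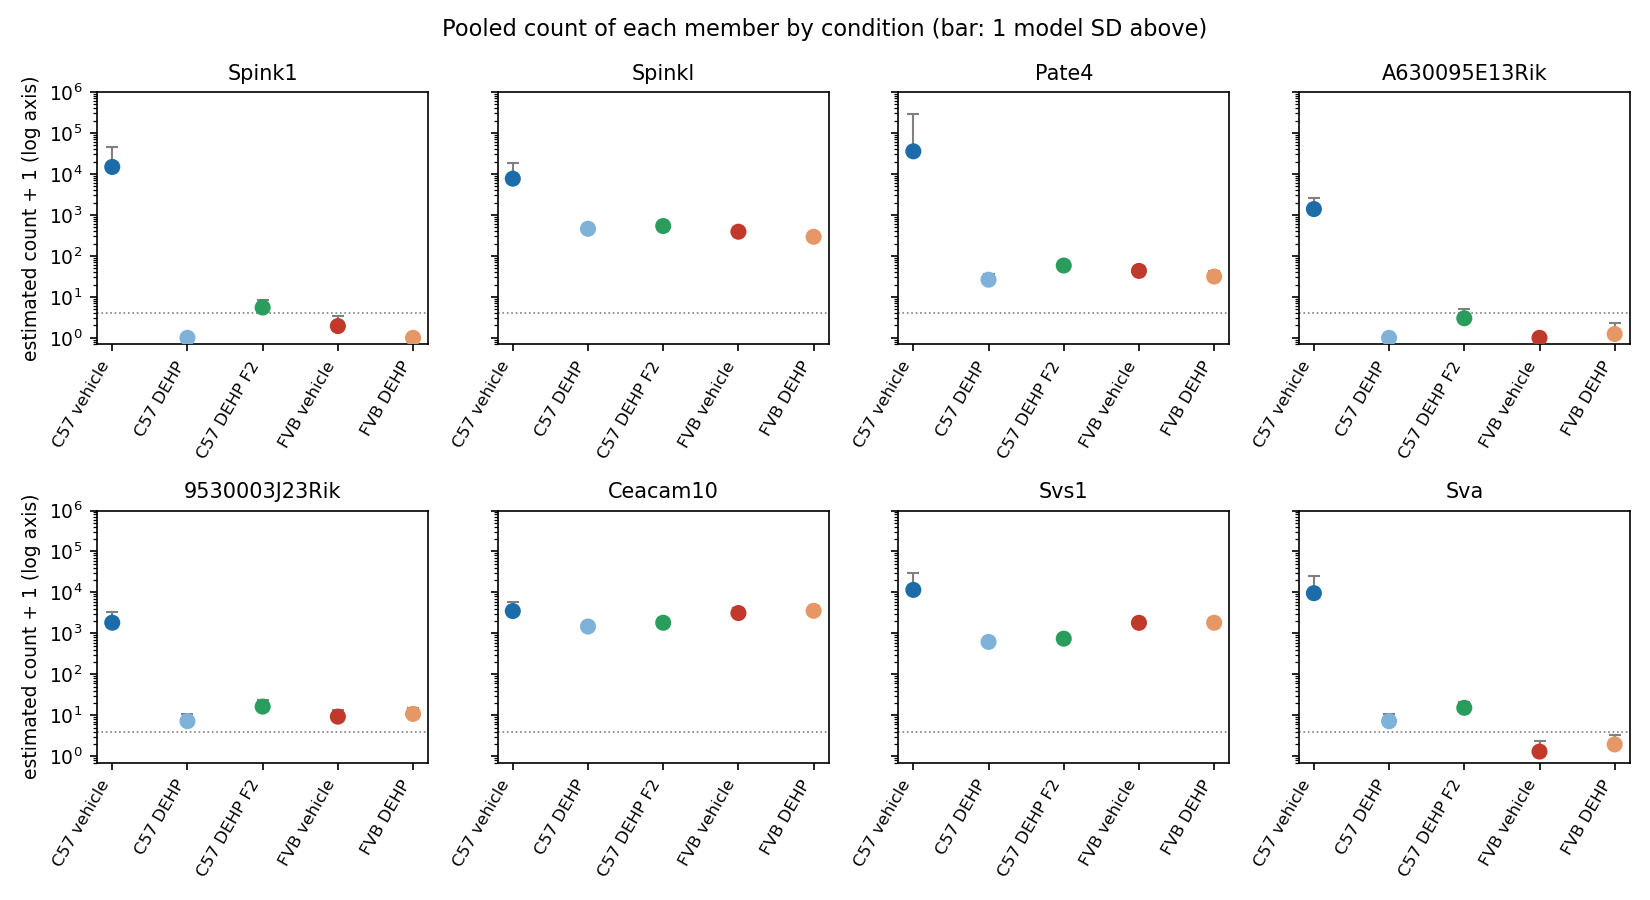
Estimated count of each of the 8 members plus 1 (vertical log axis) in the 5 conditions (horizontal axis), with bars reaching 1 SD above the count under Cuffdiff's model and a dotted line at the floor of 3 counts. Svs1, Spinkl and Ceacam10 stay above 291 counts in every condition, and the other 5 members are high in C57 vehicle only.

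The members can thus be described in 2 parts. Svs1, Spinkl and Ceacam10 had at least 291 counts in every condition, while Spink1, Pate4, Sva, 9530003J23Rik and A630095E13Rik together fell from 63228 counts in C57 vehicle to 37.6 in C57 DEHP, 93.2 in C57 DEHP F2, 51.6 in FVB vehicle and 41.4 in FVB DEHP. These 5 members made up 73.6% of the members' counts in C57 vehicle and between 0.724% and 2.92% in the other conditions. Ceacam10 made up 4.09% of the members' counts in C57 vehicle and between 56.9% and 62.4% elsewhere. The split of the members into 3 and 5 was made after their values had been seen.

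**Figure D2:**
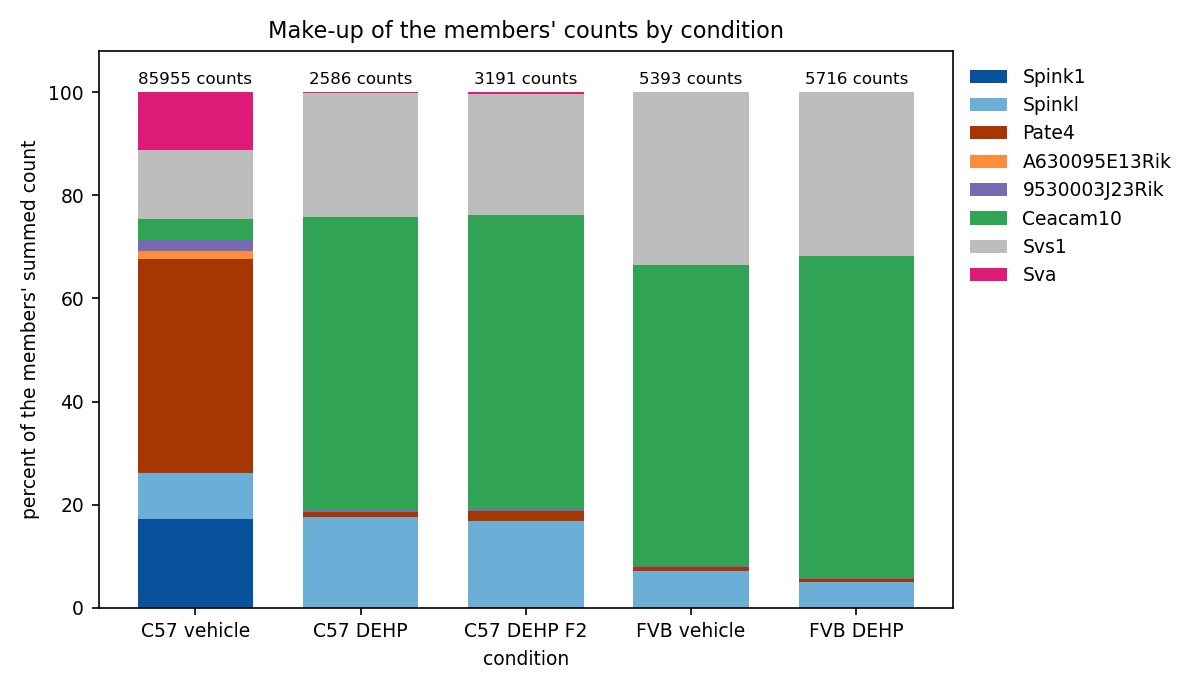
Share of each member in the members' summed count (vertical axis, percent) in each condition (horizontal axis), with the summed count above each bar. Pate4 is the largest part in C57 vehicle at 41.4%, and Ceacam10 is the largest part in the other 4 conditions.

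Per kb of transcript, which allows levels to be compared between genes, the order of the members in C57 vehicle was Pate4 (33229 counts per kb), Spink1 (20309), Sva (14731), Spinkl (12868), Svs1 (4159.5), Ceacam10 (3353), A630095E13Rik (2239.95) and 9530003J23Rik (1480.04). In C57 DEHP the order began with Ceacam10 at 1405 counts per kb, Spinkl at 768 and Svs1 at 223, ahead of Pate4 at 23.5. The members that led in one condition were thus not those that led in the other. The same 4 genes came first in that order in C57 DEHP F2, with Ceacam10 at 1736 counts per kb. In FVB/N Ceacam10 led as well, at 2997 counts per kb in FVB vehicle and 3401 in FVB DEHP. Svs1 and Spinkl were level in FVB vehicle, at 653 and 651 counts per kb, a difference far smaller than the model's SD of either count.

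Ratios between members within a condition need no scaling between conditions. The ratio of Svs1 to Spinkl counts was 1.51 in C57 vehicle, 1.35 in C57 DEHP and 1.39 in C57 DEHP F2. Both genes were thus lower in the exposed C57BL/6J conditions by nearly the same factor. In FVB/N the ratio was 4.67 in FVB vehicle and 6.24 in FVB DEHP. Pate4 and 9530003J23Rik did not keep such a proportion. Pate4 had 19.5 times the counts of 9530003J23Rik in C57 vehicle, and 4.06, 3.72, 5.05 and 3.08 times in C57 DEHP, C57 DEHP F2, FVB vehicle and FVB DEHP. The 4 lower ratios rest on 6.22, 15.4, 8.31 and 9.86 counts of 9530003J23Rik, with model SDs of 3.61, 6.93, 4.42 and 4.69. In C57 vehicle the count of Pate4 had a model SD of 250909, so the ratios are imprecise. These pairs were picked after the values had been seen.

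The members' share of all counts was 0.999% in C57 vehicle (95% Wilson interval 0.993 to 1.01, for counting error only). It was 0.0334% in C57 DEHP (0.0321 to 0.0347), 0.0461% in C57 DEHP F2 (0.0445 to 0.0477), 0.0713% in FVB vehicle (0.0694 to 0.0732) and 0.0690% in FVB DEHP (0.0673 to 0.0709). The 4 lower shares lay close together beside the distance to C57 vehicle, and the FVB/N intervals overlapped each other.

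In the first C57BL/6J generation, C57 DEHP was compared with C57 vehicle, which are both in the reused set. Whether DEHP caused the differences was not tested, with 1 value per condition. All 8 members had fewer counts in C57 DEHP, and 7 were past the limit, all of them lower. Over all 16825 genes with enough counts, 0.291% were past the limit and 0.256% were past it in the lower direction. The members were chosen with this contrast in view, so their number is a description. Svs1 was 18.6-fold lower and Spinkl 16.8-fold lower, against 1412-fold for Pate4, 1552-fold for Sva and 294-fold for 9530003J23Rik. The exception was Ceacam10, at 2.39-fold and a log2 ratio of -1.25. The median log2 ratio of the members was -9.18, beside -0.01 over all genes, and it was -8.53 if counts under 3 were raised to 3 and no count was added. All 7 stayed past the limit under each scaling of the conditions tried, but 2 of them also differed by more than the SD that Cuffdiff's model gives the difference, as set out with the model's variance.

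In FVB/N, the same comparison was made of FVB DEHP against FVB vehicle, both of the new set. No member was past the limit there, as against 0.680% of 16471 genes. Svs1 had a log2 ratio of 0.01, which turned to -0.12 with the conditions scaled to equal totals, Ceacam10 of 0.18 and Spinkl of -0.41. These 3 members had enough counts for a fall of 2 log2 units to be seen, and each difference lay within its SD under the model. For Svs1 that SD was 725 counts and for Ceacam10 1463. Pate4, at 42.0 counts with vehicle and 30.4 with DEHP, had a log2 ratio of -0.46. The other 4 members were under 10 counts in both FVB/N conditions. Spink1, Sva and A630095E13Rik were at the floor already with vehicle, so for them no fall could be seen at this depth. The median over the 8 was 0.09, and that over all genes was 0.00. With equal totals the members' median turned to -0.04.

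Between the strains without DEHP, FVB vehicle against C57 vehicle, 7 members were past the limit, all lower in FVB/N. Of the 7, 2 also differed by more than the SD that Cuffdiff's model gives the difference. All 8 genes of the sperm list and all 8 of a liver list were past the limit and lower too. The background was wide here, with 10.3% of 17086 genes past the limit and 8.88% past it in the lower direction. Svs1 was 6.37-fold and Spinkl 19.8-fold lower, so that these genes, close to each other in the C57BL/6J contrast, came apart between the strains. Ceacam10 differed by a log2 ratio of -0.16, which turned to 0.02 after scaling to equal totals. The members' median was -8.65, beside -0.03 over all genes.

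The second generation gave much the same picture against vehicle. In C57 DEHP F2 against C57 vehicle, the same 7 members were past the limit and lower, where 4.19% of 17114 genes were past it and 3.61% past it in the lower direction. Svs1 was 15.5-fold lower, Spinkl 14.3-fold and Pate4 624-fold. Ceacam10 had a log2 ratio of -0.95. The members' median log2 ratio was -7.83, beside -0.04 over all genes. This contrast shares C57 vehicle with that of C57 DEHP and with that between the strains, so their values are not independent of each other.

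Between both exposed generations, C57 DEHP F2 against C57 DEHP, no member was past the limit, beside 3.64% of 17133 genes. All 8 were higher in C57 DEHP F2, under the authors' scaling and under each of the 3 others tried. Among the 6 members with at least 10 counts in 1 of these conditions, all 6 were higher, as were 45.6% of all genes. That share of all genes was 59.95% with conditions scaled to equal totals, 61.4% with the upper quartile and 45.04% with median-of-ratios factors. Pate4 was 2.26-fold higher, Sva 2.31-fold and 9530003J23Rik 2.47-fold. Each difference was larger than its SD under the model, for Pate4 31.9 counts against 20.2. For Sva it was 8.11 against 7.07 and for 9530003J23Rik 9.14 against 7.81, both only just beyond. The share of all genes beyond that SD was not computed for this contrast. Svs1, Spinkl and Ceacam10 were higher by 1.20-fold, 1.17-fold and 1.24-fold, within their SD. Pate4, Sva and 9530003J23Rik, which had few counts, were thus higher by more than these members with many. The median log2 ratio of all 8 members was 1.12, but 0.44 with values under 3 counts set to 3 and no count added. Spink1 and A630095E13Rik had 0 counts in C57 DEHP, so no exact fold can be given for them.

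**Figure D3:**
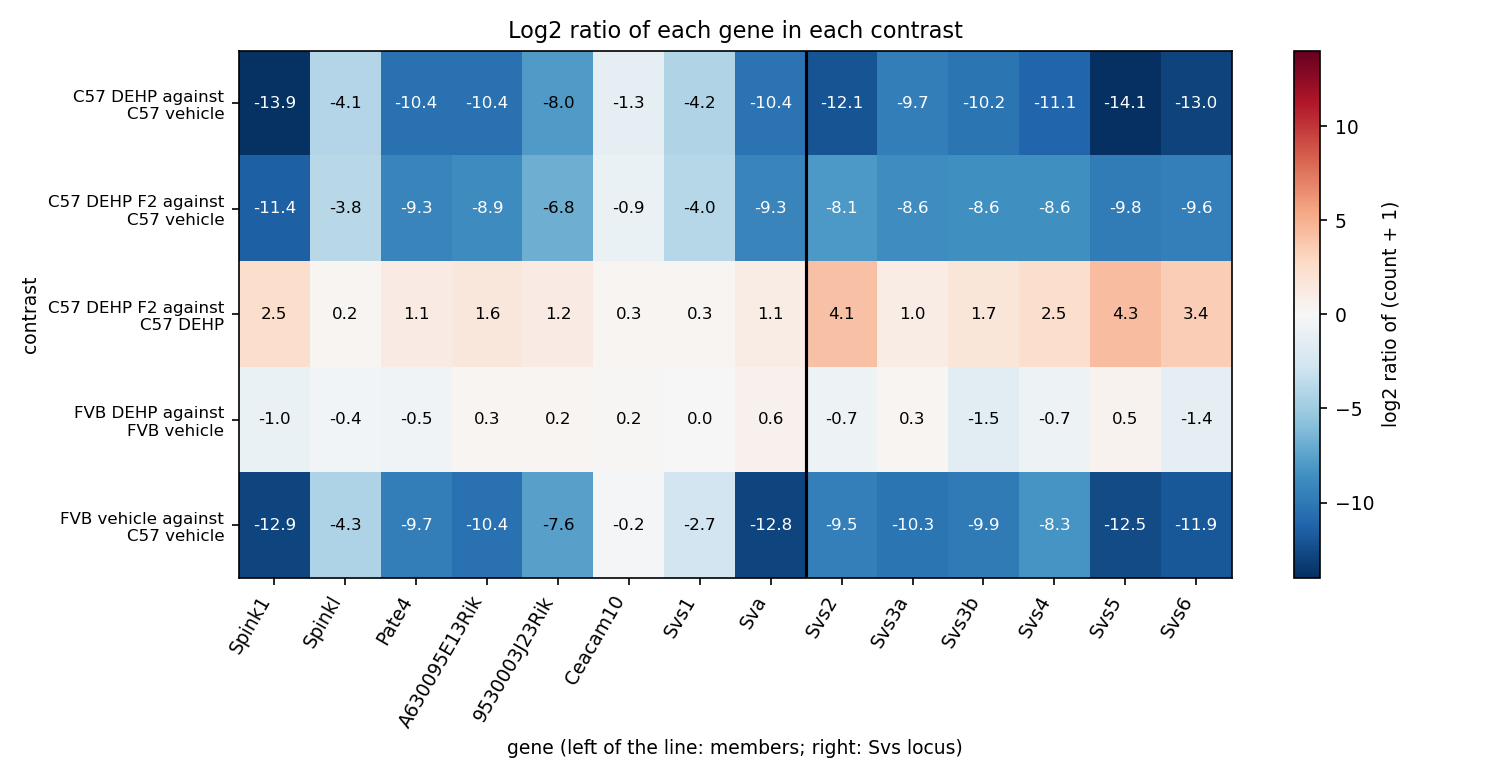
Log2 ratios of counts with 1 added (colour scale and printed values) for the 8 members and the 6 genes of the Svs locus (horizontal axis) in the 5 contrasts (vertical axis). Ceacam10 stays between -1.25 and 0.31 in every contrast, and ratios of genes near the floor, such as that of Spink1 between both exposed generations, rest on few counts.

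The genes of the Svs locus, Svs2, Svs3a, Svs3b, Svs4, Svs5 and Svs6, are the set most like the members. All 6 were past the limit and lower in C57 DEHP against C57 vehicle, as were 0.256% of all genes. Each was lower by at least 749-fold, where the members ran from 2.39-fold for Ceacam10 to at least 4935-fold for Spink1. For 2 of the 6, Svs3a and Svs3b, the drop was also larger than its SD under the model. For Svs2 a drop of 54422 counts stood against an SD of 408519. The locus had no counterpart of Svs1, Spinkl and Ceacam10. In C57 DEHP its summed count was 45.3 against 2586 for the members, although it had 183947 counts against the members' 85955 in C57 vehicle. Per kb, Svs4 at 86892 and Svs5 at 77500.5 counts per kb in C57 vehicle stood above Pate4, the highest member. From C57 DEHP to C57 DEHP F2, 4 genes of the locus were past the limit and higher, among them Svs2 from 11.2 to 201 counts. No member was past it there, where 3.64% of 17133 genes were. In FVB DEHP against FVB vehicle no gene of the locus was past the limit either.

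Beside each count stands a variance from Cuffdiff's model, whose square root is called the model's SD here and is no measured spread of the 5 libraries. In C57 vehicle the model's coefficient of variation was 7.04 for Pate4, 2.03 for Spink1, 1.61 for Svs1, 1.59 for Sva, 1.38 for Spinkl, 0.887 for A630095E13Rik, 0.848 for 9530003J23Rik and 0.668 for Ceacam10. For all 8 members it was above the median of the 200 genes nearest in count, by 14.2 times for Pate4 and 2.02 times for Ceacam10, with a median of 3.37 times. Spink1 exceeded all 200 of its neighbours in count. In the other conditions this excess was not seen. Over the members with at least 10 counts, the median ratio was 1.02 in C57 DEHP (4 members), 1.03 in C57 DEHP F2 (6 members), 1.00 in FVB vehicle (4 members) and 0.992 in FVB DEHP (4 members). Svs1 went from a coefficient of 1.61 in C57 vehicle to 0.245 in C57 DEHP, and Ceacam10 from 0.668 to 0.268. Ceacam10, whose counts stayed within 2.42-fold, thus had a raised model variance in C57 vehicle as the other members did, by the smallest factor.

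**Figure D4:**
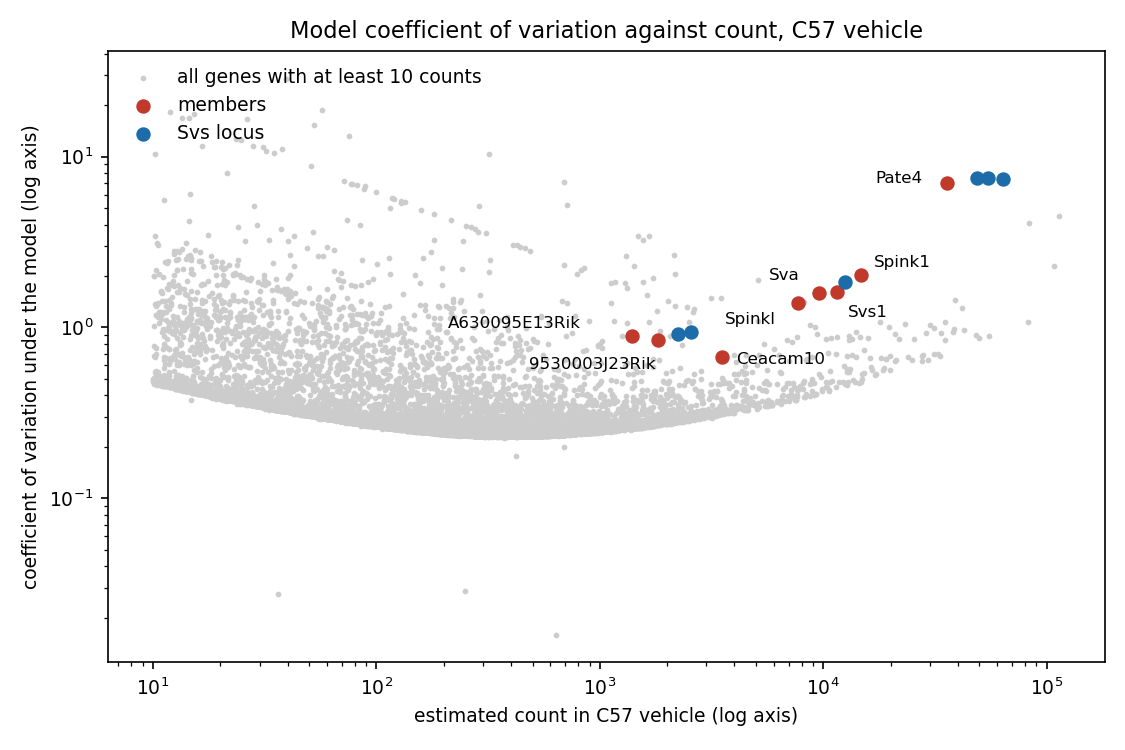
Coefficient of variation of the count under Cuffdiff's model (vertical log axis) against the estimated count in C57 vehicle (horizontal log axis), for all genes with at least 10 counts (grey), the members (red) and the Svs locus (blue). The 8 members lie above most genes of similar count, with Pate4 at 7.04 beside Svs2, Svs4 and Svs5.

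This variance bears on how firmly the contrasts with C57 vehicle can be stated. Of the 7 members past the limit in C57 DEHP against C57 vehicle, 2 also differed by more than the SD of the difference under the model, namely 9530003J23Rik (1819 counts against an SD of 1548) and A630095E13Rik (1387 against 1230.4). By that rule 0.172% of all genes were called. The same 2 members remained in C57 DEHP F2 against C57 vehicle, beside 3.90% of all genes, and in FVB vehicle against C57 vehicle, beside 9.80%. For Pate4 the difference of 35596 counts stood against an SD of 250909, and for Svs1 10924 counts stood against 18537. Which libraries carried the counts of C57 vehicle was not analysed here.

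Likeness to the members' mean profile over the 5 conditions was measured as the root mean square distance of centred log2 counts, among 11230 other genes with at least 100 counts in their highest condition. The 10 nearest genes were Svs3a (distance 0.93), Saa1 (0.95), Saa2 (0.96), Svs4 (1.09), Cxcl1 (1.19), Svs3b (1.19), Tmem91 (1.23), Svs2 (1.42), Dnase2b (1.47) and Gli2 (1.49). Of the 10, 4 belong to the Svs locus. Saa1 and Saa2 encode the acute-phase serum amyloid A proteins and Cxcl1 a chemokine that attracts neutrophils. Saa1 had 1092 counts in C57 vehicle, 27.9 in C57 DEHP and 10.7 in C57 DEHP F2, so that, unlike each of the 8 members, it was lower in the second exposed generation than in the first. Saa2, at 1304, 13.0 and 4.73 counts, and Cxcl1, at 343, 17.3 and 5.09, shared that order. Among the members themselves 9530003J23Rik lay closest to the mean profile (0.13) and Ceacam10 farthest from it (2.82). With Pearson's correlation in place of the distance, 4 of these 10 genes were again among the first 10, namely Svs3a, Svs3b, Tmem91 and Gli2. Saa1, Saa2 and Cxcl1 were not among them.

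Gene families of the members were set beside them, leaving out the members, first in C57 DEHP against C57 vehicle, where 0.291% of all genes were past the limit. Of 11 other Spink genes, 9 had enough counts in C57 DEHP against C57 vehicle and none was past the limit. Spink8 had 37904 counts in C57 vehicle and 33319 in C57 DEHP, Spink10 had 7826 and 9196, and Spink5 had 7186 and 7237. These inhibitor genes were plentiful in both conditions, whereas Spink1 was plentiful in one. Among 15 other Ceacam genes, 4 had enough counts and none was past the limit, the most abundant being Ceacam1 with 142 and 243 counts. From C57 DEHP to C57 DEHP F2, Ceacam1 was past the limit and lower, at 45.9 counts, where Ceacam10 was slightly higher. Of 8 genes of the lysozyme family, 6 had enough counts and none was past the limit. Lyz2, the neighbour of 9530003J23Rik, had 3486 counts in C57 vehicle and 3678 in C57 DEHP, but 1113 in C57 DEHP F2 and 654 in FVB vehicle. In FVB vehicle against C57 vehicle, 3 of 6 lysozyme genes were past the limit and lower, in the direction of 9530003J23Rik, as were 8.88% of all genes. The copper amine oxidase family, with 4 of 7 listed genes found, had none past the limit, and Doxl2, the gene before Svs1, had 33.6 and 14.4 counts. Pip, Sval1, Sval2 and Sval3, relatives of Sva on the same chromosome, had under 10 counts in every condition, and Sval2 was highest in C57 vehicle at 8.34 counts. In FVB/N, 2 of 9 other Spink genes with enough counts were past the limit and higher with DEHP, where 0.680% of all genes were past it. They were Spink11, from 385 to 3244 counts, and Spink2, from 29.5 to 375, while Spink1 and Spinkl were not past it.

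The genes flanking each member were looked at by position alone, after the members' values had been seen. The nearest protein-coding gene on each side gave 16 genes, of which 10 had at least 10 counts in C57 DEHP or C57 vehicle. None was past the limit, where 0.291% of all genes were. Their log2 ratios ran from -1.96 for Spink11, the gene after Spinkl, to 0.39 for Hyls1, the gene before Pate4, with a median of 0.08. Doxl2, before Svs1, was at -1.16, and Pate2, which overlaps Pate4 and is not among the 16, was at -0.83.

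Markers of tissues that lie near the sperm, and of others, were summed in each condition to set beside the members. The prostate and coagulating gland list, with 6 genes, summed to 34.1 counts in C57 vehicle, 40.3 in C57 DEHP, 265 in C57 DEHP F2, 36.6 in FVB vehicle and 94.8 in FVB DEHP. Its most abundant gene in each condition was Tgm4, the transglutaminase of the coagulating gland, with 30.1 counts in C57 vehicle and 199.6 in C57 DEHP F2. Sbp, Sbpl, Msmb and Hoxb13 were at or under the floor in every condition. This list was thus at much the same low level in C57 vehicle, where 7 members were highest, as in C57 DEHP and FVB vehicle. Between both exposed generations Tgm4 and Pbsn were past the limit and higher, in the direction of all 8 members.

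The epididymis list without Crisp1, whose estimate failed in 3 conditions, summed to 24263 counts in C57 vehicle, 28381 in C57 DEHP, 30711 in C57 DEHP F2, 37494 in FVB vehicle and 95186 in FVB DEHP. Adam7 alone made up 23918, 28056, 30429, 37310 and 53922 of these counts in the same order. Outside FVB DEHP the sum was thus nearly all Adam7 and is no level of the list as a whole. In FVB/N, 12 of its 13 genes with enough counts were past the limit and higher with DEHP, where 0.680% of all genes were past it. None of the 4 members with enough counts in that contrast was past it. The 8 sperm and spermatid genes summed to 83801 counts in C57 vehicle, 70309 in C57 DEHP, 28117 in C57 DEHP F2, 6862 in FVB vehicle and 8143 in FVB DEHP. The 8 liver genes summed to 233028 counts in C57 vehicle and 196069 in C57 DEHP, led by Alb, and to 8033 in C57 DEHP F2, 3267 in FVB vehicle and 2794 in FVB DEHP, led by Trf. Of the liver genes, 7 were lower in C57 DEHP than in C57 vehicle and Alb was higher, at 100464 against 83529 counts, with a median log2 ratio of -0.54. None of the 8 sperm genes, 8 liver genes and 6 epididymis genes with enough counts was past the limit in this contrast, where 0.291% of all genes were, and Crisp1 could not be compared. In FVB vehicle against C57 vehicle, all 8 sperm and all 8 liver genes were past the limit and lower, as were 8.88% of all genes. Their median log2 ratios were -3.27 and -7.62. In C57 DEHP F2 against C57 vehicle, all 8 liver genes were past it and lower, as were 3.61% of all genes. Their median was -5.79 there, and no sperm gene was past the limit. The 5 smooth muscle genes were all lower in C57 DEHP under each scaling, with a median log2 ratio of -0.78 and the summed count going from 17808 to 10048, led by Acta2. They summed to 7680.2 in C57 DEHP F2, 11637 in FVB vehicle and 7736.5 in FVB DEHP. The blood list, with 6 of 7 genes found and Hba-a1 near 0, summed to 1994 and 1967 counts in C57 vehicle and C57 DEHP, 3127 in C57 DEHP F2, 1342 in FVB vehicle and 6378 in FVB DEHP, led by Hbb-bs. The part of any of these tissues in the members' counts was not tested.

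**Figure D5:**
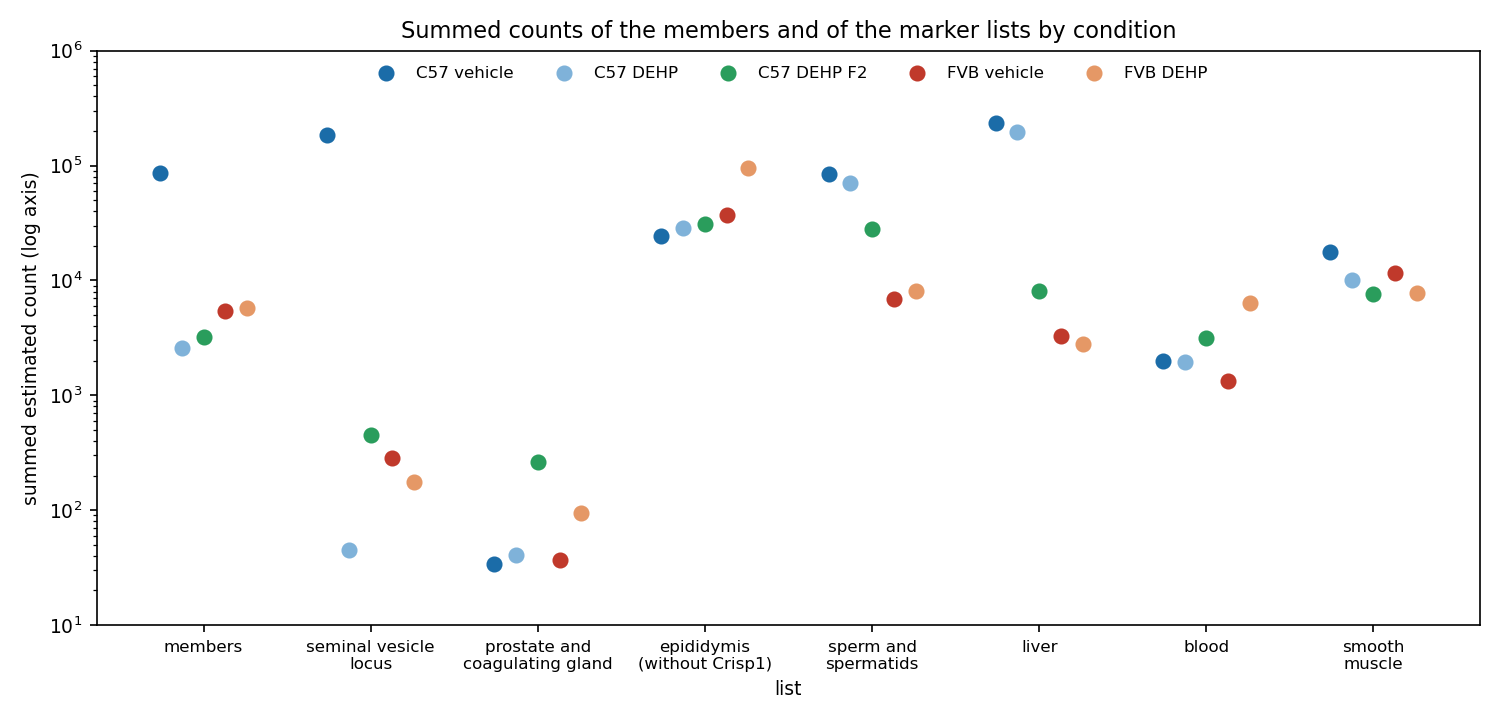
Summed estimated counts (vertical log axis) of the members and of 7 marker lists (horizontal axis) in the 5 conditions (colours), the epididymis list without Crisp1. Adam7 makes up nearly all of the epididymis sum outside FVB DEHP. The members and the seminal vesicle locus are highest in C57 vehicle and far lower in the other 4 conditions. The sperm, liver and smooth muscle lists are highest there too, by smaller margins over C57 DEHP. The liver list goes from 233028 counts in C57 vehicle to 8033 in C57 DEHP F2 and 3267 in FVB vehicle. The members go from 85955 to 3191 and 5393 in the same conditions.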

How the data were processed

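Per the labels and methods, the authors clipped the adapter from reads, aligned them to mm10 by TopHat and ran Cuffdiff per gene. Cuffdiff's version, options and annotation release are not given in the sources used here. The deposited values are a signal, an estimated fragment count per gene and condition, used beside the variance of each count under the model, in 10 columns for 24358 genes. Values with a failed estimate (71 genes, no member) were treated as missing. From these values, log2 ratios with a pseudocount of 1, shares, distances between profiles and counts per kb of the longest coding transcript in GENCODE M21 were computed. Of the table's genes, 23323 were found there by name. Motifs were searched in RefSeq's promoter table. The members and lists were chosen with earlier results of these data known. Genes named are the members, the Svs locus, the 10 genes nearest in pattern, genes of the family and marker lists that were abundant, at the floor or past the limit and, added after values were seen, flanking genes. Scaling, pseudocount, minimum and limit were varied. Some genes of the lists are not reported here. The procedure was tested on simulated data with counting error only, which lack the raised model variance of the members in C57 vehicle. The scripts ran under Python 3.11.15 (matplotlib 3.10.9, scipy 1.17.1, pandas 2.3.3, numpy 2.4.6).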

Additional observations from a re-analysis of the deposited data

How the results depend on the processing

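No paired analysis was possible because each condition has 1 pooled value. A median was counted as moved beyond 0.5 log2 units and a number of members beyond 1.5 times. Where a difference had to be larger than its SD under the authors' model as well, the number of members past the limit dropped from 7 to 2 in C57 DEHP, C57 DEHP F2 and FVB vehicle against C57 vehicle. In C57 DEHP F2 against C57 DEHP it went from 0 to 1 with no minimum count and to 3 at 1 log2 unit. With 10 counts added, the medians were -6.97 in C57 DEHP, -6.52 in C57 DEHP F2 and -6.89 in FVB vehicle against C57 vehicle, and 0.42 in C57 DEHP F2 against C57 DEHP. With values under 3 counts set to 3 and no count added, the first was -8.53 and the last 0.44, and with a minimum of 100 counts the last was 0.26. Leaving the 20 genes with the highest mean count out of the total gave shares of 1.12% in C57 vehicle, 0.0368% in C57 DEHP, 0.0524% in C57 DEHP F2, 0.0824% in FVB vehicle and 0.0839% in FVB DEHP. The order of both FVB/N shares then turned. By Pearson's correlation, 4 of the 10 nearest genes were again found. For these changes the cause was not tested beyond the construction of each alternative. Scaling to equal totals moved the median of all genes most in C57 DEHP F2 against C57 vehicle, by 0.31. The total without mitochondrial genes was not run, since 0 of their 37 names are in the table used.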

Other observations

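Pate2, which overlaps Pate4, had its own order of conditions, with 313 counts in C57 vehicle, 176 in C57 DEHP, 528 in C57 DEHP F2, 887 in FVB vehicle and 1420.5 in FVB DEHP. Spink11, which follows Spinkl on chromosome 18, had 537, 137, 256, 385 and 3244 counts in the same order. Its log2 ratio of -1.96 in C57 DEHP against C57 vehicle was just short of the limit and was the lowest among the flanking genes with enough counts.

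Gli2, a transcription factor of Hedgehog signalling and the last of the 10 genes nearest in pattern, had 643 counts in C57 vehicle and 53.0, 55.6, 37.5 and 36.3 in C57 DEHP, C57 DEHP F2, FVB vehicle and FVB DEHP. Its ratio between C57 vehicle and C57 DEHP lay nearer to those of Svs1 and Spinkl than to that of Pate4. Tmem91 had 172 counts in C57 vehicle and under 10 in each other condition. These are values without a replicate check, and no explanation was tested.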
